A study of Mus musculus with 60 samples.

Results

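The 10 genes described here encode the main enzymes that clear superoxide and peroxides from cells: the superoxide dismutases Sod1 and Sod2, catalase (Cat), the glutathione peroxidases Gpx1, Gpx3 and Gpx4, and the peroxiredoxins Prdx1, Prdx2, Prdx5 and Prdx6. They were found by gene symbol and matched by gene identifier to count tables of 49315 genes, a rule that uses no measured value. All 10 were counted in the whole blood of 60 male CD2F1 mice, 6 in each of 10 groups, bought at 5 to 6 weeks of age and kept 3 to a cage. The mice were given BIO 300, an oral powder of synthetic genistein (the soy isoflavone), at 50, 100 or 200 mg/kg, or the vehicle alone, 2 times a day for 6 days. Blood was drawn 24 h after the last dose (Day 0) or 48 h after it (Day 1). Mice of 2 further Day 1 groups, which had received the vehicle or 200 mg/kg of BIO 300, were exposed to 9.2 Gy of total-body irradiation (TBI) on Day 0 and bled 24 h later. One strain and one sex were used, and the labels do not place the mice in cages, so a shared cage cannot be told apart from a treatment.

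Superoxide dismutases turn superoxide into hydrogen peroxide, Sod1 in the cytosol and Sod2 in mitochondria. Catalase splits hydrogen peroxide into water and oxygen, glutathione peroxidases reduce peroxides with glutathione, and peroxiredoxins reduce them with a cysteine that thioredoxin or glutathione then restores. Mature red cells carry much hemoglobin, have neither nucleus nor mitochondria, and are known for high amounts of Prdx2, catalase, Gpx1, Sod1 and Prdx6 protein. Their young forms still hold RNA, so in whole blood the RNA of these enzymes is read beside that of white cells and platelets. For that reason Prdx2, Gpx1, Cat, Sod1 and Prdx6 are described as the red cell enzymes and Gpx4, Prdx5, Prdx1, Sod2 and Gpx3 as the remaining enzymes, a grouping taken from textbook knowledge.

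On GRCm38 all 10 are protein-coding genes on separate chromosomes: Prdx2 at chr8:84969587-84974834, Gpx1 at chr9:108338903-108340343, Cat at chr2:103453849-103485160, Sod1 at chr16:90220754-90226329, Prdx6 at chr1:161240112-161251219, Gpx4 at chr10:80047166-80056439, Prdx5 at chr19:6906697-6910106, Prdx1 at chr4:116685544-116700822, Sod2 at chr17:13006846-13040063 and Gpx3 at chr11:54902453-54910377. Cat, Prdx5 and Prdx6 are on the minus strand. Prdx2 overlaps Junb and Rnaseh2a, Prdx5 overlaps Trmt112 and Sod1 overlaps Scaf4 on the opposite strand, and since the strand setting of the counting is not given in the sources used here, reads of these pairs cannot be told apart.

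The bases just upstream of 4 of the genes are shown, 2 red cell enzymes with CACCC boxes (Prdx2 and Cat) and the 2 genes with an antioxidant response element (Sod1 and Prdx1). Any part of these letters in the changes of the genes was not tested. The sequences are from RefSeq on GRCm38.p6, run 5′ to 3′ on the strand of the gene and stop before the annotated gene, and capitals mark every motif match in them.
Prdx2, chr8:84969372-84969586, plus strand: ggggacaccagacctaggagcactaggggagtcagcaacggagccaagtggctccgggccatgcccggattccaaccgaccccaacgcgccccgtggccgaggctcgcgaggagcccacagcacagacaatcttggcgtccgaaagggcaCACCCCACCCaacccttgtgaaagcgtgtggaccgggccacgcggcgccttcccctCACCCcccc
Cat, chr2:103485161-103485403, minus strand: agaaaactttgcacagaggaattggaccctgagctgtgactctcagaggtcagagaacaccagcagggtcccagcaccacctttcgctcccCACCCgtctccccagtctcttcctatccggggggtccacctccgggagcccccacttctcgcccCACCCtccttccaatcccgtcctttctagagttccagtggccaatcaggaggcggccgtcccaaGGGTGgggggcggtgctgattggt
Sod1, chr16:90220512-90220753, plus strand: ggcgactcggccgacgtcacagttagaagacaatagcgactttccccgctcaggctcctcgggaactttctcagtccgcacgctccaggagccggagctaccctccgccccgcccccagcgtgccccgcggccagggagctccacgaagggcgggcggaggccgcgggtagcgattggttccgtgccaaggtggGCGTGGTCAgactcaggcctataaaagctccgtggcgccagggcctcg
Prdx1, chr4:116685349-116685543, plus strand: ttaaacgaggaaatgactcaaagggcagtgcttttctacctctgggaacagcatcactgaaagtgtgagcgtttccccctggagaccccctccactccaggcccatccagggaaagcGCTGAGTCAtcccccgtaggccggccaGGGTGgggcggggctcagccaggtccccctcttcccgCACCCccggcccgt
Motifs were searched on both strands from 250 bases before to 50 bases after each start site, for the 9 genes of the 10 in the RefSeq promoter table (all but Prdx6). The antioxidant response element TGACNNNGC, the site of Nrf2, lay in 12.4% of all 32851 promoters, and among the 9 genes in Sod1 (read as GCGTGGTCA on the gene's strand) and Prdx1 (GCTGAGTCA). The GATA letters AGATAA lay in 11.2% of promoters and in none of the 9, and TGATAA lay in 9.05% of promoters and only in Gpx4 among the 9. The erythroid CACCC box was searched as CCACACCC, which lay in 3.56% of promoters and in none of the 9, and as its core CACCC, which every CCACACCC holds too. The core lay in 57.5% of promoters and in Cat, Gpx1, Gpx3, Gpx4, Prdx1, Prdx2 and Prdx5. AGATAA and TGATAA share the letters GATAA. A match describes letters, and no binding was measured.

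Each library held between 15099415 and 45589415 counts, with a median of 24877994. The tissue was checked against red cell markers: 14 erythroid genes together held 1.04 to 9.37% of the counts of a library over the 60 mice. Libraries were scaled by the trimmed mean of M-values (TMM), and levels are given as CPM, the usual unit of counts relative to library size, on that scale over all 60 mice. TMM factors were low on Day 1 after 100 mg/kg (0.485 to 0.680) and 200 mg/kg (0.415 to 0.646) and high in vehicle mice on Day 1 (1.15 to 1.63), with no overlap. Scaling by total counts in place of TMM therefore shifted the median log2 fold change of all genes by -1.47 for 200 mg/kg Day 1 versus Vehicle Day 1 and by -1.38 for 100 mg/kg, and all changes below are relative to that choice. In addition, 10 of the 60 mice had at least 10 of 16 hepatocyte genes above 10 CPM (1 mouse in each of 8 groups, 2 in Vehicle TBI Day 1 and none in BIO 300 50 mg/kg Day 1), and values without them are given beside several results. Mouse 39 (BIO 300 100 mg/kg Day 1) had 9 of the 16 above 10 CPM, just under this limit, and was not left out with them. In bulk blood, fewer cells of a type and less RNA per cell cannot be told apart.

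Levels per kb were divided by the union of exons over all annotated transcripts (3050 bases for Prdx2 and 2613 for Cat). Another choice of length could change the order of the genes. By this measure Gpx1 held the most RNA of the 10 genes in every group, with a mean of 1312 CPM per kb in vehicle mice on Day 1. In the same mice Cat was at 274 CPM per kb and Prdx2 at 217, followed by Gpx4 at 39.7, Prdx1 at 14.4, Prdx5 at 12.7, Prdx6 at 8.85, Sod1 at 8.37, Sod2 at 3.55 and Gpx3 at 2.82. With these lengths Cat was second in 8 of 10 groups. Prdx2 was above it on Day 1 after 100 mg/kg (802 against 583 CPM per kb) and 200 mg/kg (906 against 634). Before division by length, Cat and Prdx2 had means of 716 and 662 CPM in vehicle mice on Day 1, so which was second there rests on the lengths. Gpx4 was next after Gpx1, Cat and Prdx2 in all 10 groups, and Gpx3, the secreted enzyme of plasma that is made mainly in kidney, was at or next to the bottom.

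**Figure D1:**
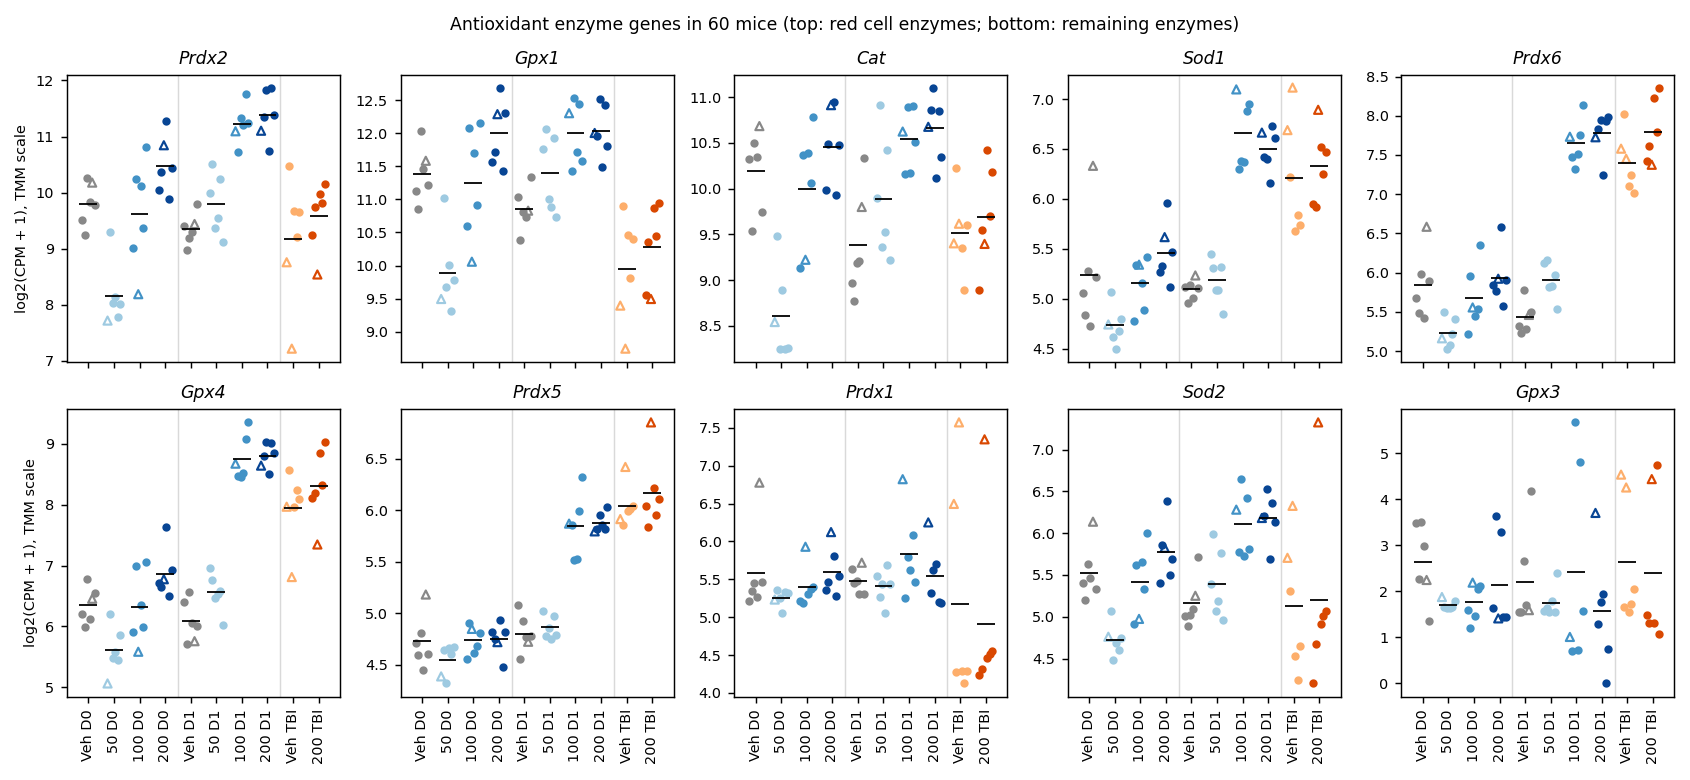
Level of each gene in each of the 60 mice as log2(CPM + 1) on the TMM scale, by group (Veh, vehicle, and the dose in mg/kg, on Day 0 or Day 1, with TBI groups at the right); each point is a mouse, bars are group means, and open triangles mark the 10 mice with hepatocyte genes. Gpx4, Prdx6, Sod1 and Prdx5 were high in the 4 groups of 100 and 200 mg/kg on Day 1 and TBI, whereas Prdx2, Gpx1 and Cat were high after 100 and 200 mg/kg on Day 1 and not after TBI; without the TMM scaling, Sod1, Cat, Gpx1 and Prdx5 were not higher after 200 mg/kg.

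At the later time, Day 1, RNA of 8 of the 10 genes was higher in mice given 200 mg/kg than in vehicle mice, from 2.15-fold for Sod2 to 6.93-fold for Gpx4. A gene was called changed when its adjusted p in edgeR's quasi-likelihood test was under 0.05 and its log2 fold change over 1 in size. Among all 23513 genes tested, 17.3% were called higher and 30.5% lower, and the median over the 10 genes was a log2 fold change of 1.27 beside -0.48 over all genes. The same 8 genes were higher after 100 mg/kg, where 18.2% of 23699 genes were called higher and 30.6% lower, and their median was 1.33 beside -0.38. The calls depended on the scaling: with total counts only Gpx4 of the 10 was called higher at either dose (against 3.03% of all genes for the higher dose and 4.14% for the lower), and of the called genes Sod2, Cat, Gpx1 and Prdx5 turned below 0 at both doses and Sod1 at 200 mg/kg (-0.01).

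All 5 red cell enzymes were among the 8. Overlap between groups is given below for single genes. It was not counted over all genes, of which 14942 passed the adjusted p at 200 mg/kg. Prdx2, the most abundant peroxiredoxin of red cells, was at 502, 655 and 887 CPM (lowest, median and highest of 6 mice) in vehicle mice on Day 1, at 1722, 2642 and 3751 CPM after 200 mg/kg, and at 1689, 2383 and 3450 CPM after 100 mg/kg. Every treated mouse was above every vehicle mouse, and the log2 fold change was 2.13 ± 0.21 (SE) at 200 mg/kg (adjusted p = 9.44e-07, edgeR) and 1.94 ± 0.20 at 100 mg/kg (adjusted p = 1.16e-06). Prdx2 kept its direction with total counts (0.58 and 0.54) and was then not called. Prdx6, which reduces phospholipid hydroperoxides, was at 36.7, 41.0 and 54.1 CPM in the vehicle mice and at 151, 236 and 253 CPM after 200 mg/kg. Its groups did not overlap and it was 5.48-fold higher (log2 2.45 ± 0.14, adjusted p = 1.76e-08), with 2.32 ± 0.14 at 100 mg/kg.

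Sod1, the cytosolic dismutase, was at 30.1, 33.6 and 36.6 CPM in vehicle mice, a narrow range, and at 70.6, 90.7 and 105 CPM after 200 mg/kg. The groups lay well apart on the TMM scale (log2 1.51 ± 0.10, adjusted p = 2.83e-08), and at 100 mg/kg the log2 fold change was 1.69 ± 0.14. Gpx1, the selenoenzyme of red cell cytosol, was at 1344, 1808 and 2579 CPM in vehicle mice and at 2867, 4048 and 5869 CPM after 200 mg/kg. The highest vehicle mouse was below the lowest treated mouse (log2 1.26 ± 0.22, adjusted p = 1.79e-04), and at 100 mg/kg the value was 1.24 ± 0.25. Cat was the one red cell enzyme whose groups overlapped, with 437, 587 and 1294 CPM in vehicle mice against 1110, 1739 and 2203 CPM after 200 mg/kg (log2 1.28 ± 0.26, adjusted p = 7.71e-04). A single vehicle mouse, number 30, reached the treated range. With total counts the log2 fold changes at 200 mg/kg were -0.01 for Sod1, -0.28 for Gpx1 and -0.21 for Cat, and at 100 mg/kg 0.29, -0.16 and -0.22.

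Of the remaining enzymes, Gpx4, which protects membranes from lipid peroxides and is the guard against ferroptosis, showed the largest change of the 10. It was at 51.2, 64.3 and 93.9 CPM in vehicle mice on Day 1, at 362, 452 and 524 CPM after 200 mg/kg and at 351, 386 and 654 CPM after 100 mg/kg. No treated mouse came near the vehicle range, the log2 fold changes were 2.79 ± 0.17 (adjusted p = 1.76e-08) and 2.76 ± 0.20 (adjusted p = 6.31e-08), and with total counts they were 1.24 and 1.33. Of the 50-base stretches of Gpx4 transcripts, 34.7% also occur in other genes, mainly the processed copy Gpx4-ps2, whose count was 5.59% of that of Gpx4. Prdx5, found in mitochondria, peroxisomes and cytosol, was at 22.5, 26.3 and 32.8 CPM in vehicle mice and at 54.5, 56.2 and 64.4 CPM after 200 mg/kg. Treated and vehicle mice did not overlap (log2 1.17 ± 0.10, adjusted p = 1.62e-07), yet with total counts the sign turned (-0.36).

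Sod2, the mitochondrial dismutase, was at 28.7, 32.2 and 51.7 CPM in vehicle mice and at 50.8, 72.2 and 91.1 CPM after 200 mg/kg. The highest vehicle mouse was just above the lowest treated mouse. The log2 fold changes were 1.10 ± 0.16 (adjusted p = 2.71e-05) and, at 100 mg/kg, 1.04 ± 0.18, and they were -0.41 and -0.35 with total counts. At 100 mg/kg the call was lost when vehicle mouse 26 (log2 0.98) or treated mouse 39 (0.92) or 41 (0.98) was left out. Prdx1, a cytosolic peroxiredoxin, stood apart: it was at 38.5, 43.1 and 51.7 CPM in vehicle mice and at 35.4, 43.6 and 75.2 CPM after 200 mg/kg. Its ranges overlapped and it was not called at either dose (log2 0.18 ± 0.17, adjusted p = 0.362, and 0.51 ± 0.22, adjusted p = 0.0514), while with total counts it turned below 0 at both doses (-1.31 and -0.88) and was called lower at 200 mg/kg, as were 65.5% of all genes. Gpx3 was too low and too variable to be called, at 1.91, 2.13 and 17.2 CPM in vehicle mice and between 0 and 12.0 CPM after 200 mg/kg (log2 -0.56 ± 0.82). Without the mice with hepatocyte genes the Gpx3 value was -1.89 and was called lower. At 100 mg/kg it was spread from 0.633 to 49.9 CPM (1.42 on the TMM scale and -0.01 with total counts).

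**Figure D2:**
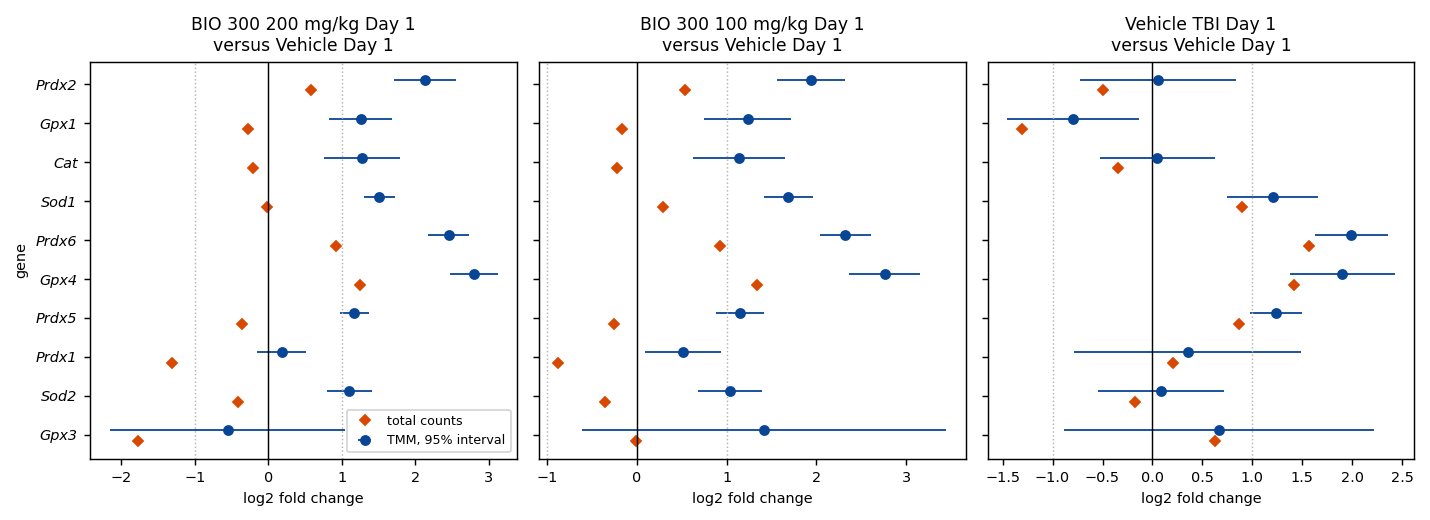
log2 fold change of each gene on the TMM scale (circles, with 95% intervals) and with total counts (diamonds) for 200 mg/kg Day 1, 100 mg/kg Day 1 and Vehicle TBI Day 1, each versus Vehicle Day 1; dotted lines mark a log2 fold change of 1 in either direction. At both doses the diamonds lie well left of the circles, and Sod2, Cat, Gpx1, Prdx5 and the uncalled Prdx1 change sign, as do Sod1 at 200 mg/kg and the uncalled Gpx3 at 100 mg/kg, whereas after TBI the 4 genes called higher (Prdx6, Gpx4, Prdx5 and Sod1) stay above 0 on both scales.

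The marker genes of blood cells moved in the same comparison. At 200 mg/kg on Day 1 all 14 erythroid genes (median log2 fold change 1.87), 4 of 4 globin genes (2.69) and 8 of 8 platelet genes (3.30) were called higher, and 8 of 8 B cell genes (-1.90) and 8 of 8 T cell genes (-1.91) lower, while none of 8 neutrophil genes was called. The summed platelet genes made up 0.295 to 0.589% of a library in vehicle mice and 0.812 to 1.33% after 200 mg/kg, and the erythroid genes 3.98 to 7.63% and 6.29 to 9.37%. Platelet shares thus did not overlap and erythroid shares did. At 100 mg/kg 11 of 14 erythroid and 8 of 8 platelet genes were higher. The part of these cell types in the changes of the enzyme genes was not tested.

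At the lower dose and at the earlier time the picture differed. After 50 mg/kg on Day 1, none of the 10 genes was called, as for 0% of all 24118 genes (no gene was called by edgeR, with 4458 at an unadjusted p under 0.05). Prdx6 lay nearest to a call, at 45.3, 58.8 and 70.8 CPM against 36.7, 41.0 and 54.1 CPM (log2 0.49 ± 0.12, adjusted p = 0.1), and the members' values ran from -1.04 for Gpx3 to 0.63 for Gpx1. None was called on Day 0 after 200 mg/kg (0% of all genes called, 2145 at an unadjusted p under 0.05) or 100 mg/kg (0%, 726). On Day 0 after 200 mg/kg the largest values were 0.74 ± 0.26 for Prdx2 (adjusted p = 0.546), 0.66 ± 0.29 for Gpx1 and 0.57 ± 0.20 for Gpx4. Between the vehicle groups of the 2 days no member was called either (0% of all genes, 3007 at an unadjusted p under 0.05), though 9 of the 10 values were below 0, down to -0.76 ± 0.29 for Cat. A direct comparison of 200 with 100 mg/kg on Day 1 also called no gene (0%, 725 at an unadjusted p under 0.05), and apart from Gpx3 (-1.99 ± 1.16) the values lay between -0.33 for Prdx1 and 0.20 for Prdx2. DESeq2's Wald test also called none of the 10 genes in these 5 comparisons, with 39 genes called in all after 50 mg/kg on Day 1, 2 in each Day 0 comparison, 37 between the vehicle days and 0 between the doses. A fit of all 10 groups together called none of the 10 genes either, and 43 genes in all between the doses, 1 on Day 0 after 200 mg/kg and 0 in the other 3.

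The 50 mg/kg group on Day 0 went the other way. In that group 4 of the 10 genes were lower than in vehicle mice of the same day, against 4.38% of all 24485 genes called lower and 0.127% called higher. Prdx2 was at 209, 258 and 628 CPM after 50 mg/kg and at 609, 893 and 1220 CPM in vehicle mice (log2 -1.56 ± 0.28, adjusted p = 0.00331). A single treated mouse, number 2, reached the lowest vehicle values, and it was also the highest of its group for Gpx1. Cat was at 304, 338 and 715 CPM against 742, 1291 and 1645 CPM, with no overlap (-1.55 ± 0.26, adjusted p = 0.00280), and Gpx1 at 634, 849 and 2076 CPM against 1849, 2606 and 4193 CPM (-1.42 ± 0.31, adjusted p = 0.00912). Gpx3 was also lower (-1.41 ± 0.37, adjusted p = 0.0247), and its call was lost without vehicle mouse 13 (-1.21) or 15 (-1.18) or treated mouse 3 (-1.39), 4 (-1.39) or 5 (-1.40). Sod2 (-0.84), Gpx4 (-0.72) and Prdx6 (-0.65) passed the adjusted p and not the fold threshold. With total counts none of the 10 was called, the 4 genes kept their sign (Prdx2 -0.92, Cat -0.89, Gpx1 -0.78, Gpx3 -0.71), and the median of all genes moved by 0.66. Erythroid genes were lower in the same comparison (13 of 14, median -1.70), as were 6 of 8 platelet genes (-1.02). Gpx3 was most like the fat cell gene Fabp4 over the 60 mice (r = 0.88). The 8 adipocyte genes summed to a median of 6.62 CPM (2.61 to 65.7) after 50 mg/kg and 68.5 CPM (1.84 to 605) in vehicle mice. The part of these cell types in the changes of the enzyme genes, Gpx3 among them, was not tested.

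**Figure D3:**
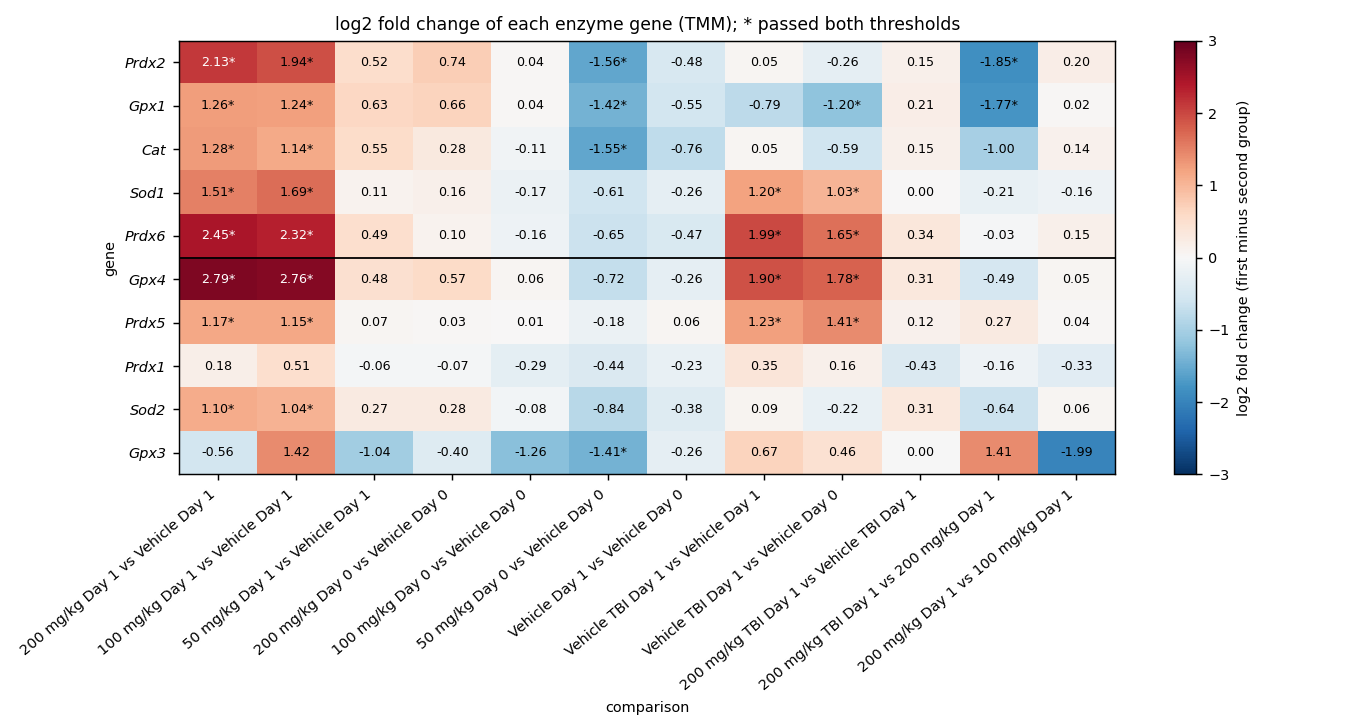
log2 fold change on the TMM scale of each gene (rows, red cell enzymes above the line) in the 12 comparisons of a pair of groups (columns), with asterisks on values that passed both thresholds. Red columns at the left hold 8 asterisks each for 200 and 100 mg/kg on Day 1, the 50 mg/kg Day 0 column holds 4 blue ones, and the columns of irradiated vehicle mice hold Prdx6, Gpx4, Prdx5 and Sod1 (with Gpx1 lower against Day 0); with total counts Sod2, Cat, Gpx1, Prdx5 and Prdx1 turn below 0 in the first 2 columns, as do Sod1 at 200 mg/kg and Gpx3 at 100 mg/kg.

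Whether an effect differed between days was tested directly, as the Day 1 difference from vehicle minus the Day 0 difference. At 200 mg/kg 6 of the 10 genes differed upward, against 13.1% of all genes: Prdx6 (2.38 ± 0.27, adjusted p = 3.59e-07), Gpx4 (2.24 ± 0.27), Prdx2 (1.42 ± 0.34), Sod1 (1.37 ± 0.29), Prdx5 (1.16 ± 0.16) and Cat (1.02 ± 0.37, adjusted p = 0.0276). The Cat call was lost in 12 of 24 fits that each left out 1 mouse (0.85 to 0.99, without vehicle mouse 15, 16, 17, 25, 26, 27 or 28 or treated mouse 19, 23, 44, 45 or 47). At 100 mg/kg 8 genes differed upward, against 15.7%, from 1.12 ± 0.29 for Sod2 to 2.71 ± 0.35 for Gpx4. There Gpx1 (1.2 ± 0.47) was not called without vehicle mouse 15 or 26 or treated mouse 7, 11, 37, 39 or 41 (1.003 to 1.12), and Sod2 was not without mouse 17 or 39 (0.97 for both). At 50 mg/kg 6 did, against 6.73%: Cat (2.11 ± 0.45), Prdx2 (2.09 ± 0.38) and Gpx1 (2.06 ± 0.43) led, then Gpx4 (1.21), Prdx6 (1.15) and Sod2 (1.11). Without vehicle mouse 17 neither Prdx6 nor Sod2 was called (0.98 for both), and without treated mouse 32 Sod2 was not (0.95). Leaving out all mice with hepatocyte genes ended the calls of Sod2 (0.88) and Gpx1 (0.95) at 100 mg/kg and of Prdx6 (0.98) at 50 mg/kg. The 3 genes that led at 50 mg/kg were among those called lower on Day 0, and those that led at 100 and 200 mg/kg were Gpx4 and Prdx6. With total counts the differences of Cat and Prdx5 at 200 mg/kg and of Sod2, Cat, Gpx1 and Prdx5 at 100 mg/kg turned below 0, and those of Cat, Prdx2 and Gpx1 at 50 mg/kg were still called (1.06, 1.05 and 1.02). Prdx6 (1.09) was still called higher at 200 mg/kg on that scale and Prdx1 (-1.01) lower.

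At 24 h after TBI, vehicle mice had more RNA of 4 enzymes than vehicle mice of the same day without TBI, against 19.6% of all 25146 genes called higher and 16.4% lower. Prdx6 was at 128, 163 and 260 CPM (lowest, median and highest) after TBI and at 36.7, 41.0 and 54.1 CPM without it (log2 1.99 ± 0.19, adjusted p = 8.79e-06). Gpx4 was at 111, 260.5 and 379 CPM against 51.2, 64.3 and 93.9 CPM (1.90 ± 0.27, adjusted p = 1.28e-04), Prdx5 at 57.0, 63.1 and 84.6 CPM against 22.5, 26.3 and 32.8 CPM (1.23 ± 0.13), and Sod1 at 50.3, 64.9 and 138 CPM against 30.1, 33.6 and 36.6 CPM (1.202 ± 0.23). None of these 4 genes overlapped between the groups, though overlap was not counted over all genes, of which 11765 passed the adjusted p. Their direction held with total counts (1.57, 1.41, 0.87 and 0.89), where Prdx6 and Gpx4 were still called. Without the mice with hepatocyte genes Sod1 fell under the fold threshold (0.86).

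The 3 other red cell enzymes did not follow. Prdx2 (0.05 ± 0.40) and Cat (0.05 ± 0.29) overlapped with vehicle mice, and Gpx1 was at 427, 1122 and 1907 CPM after TBI against 1344, 1808 and 2579 CPM without it (-0.79 ± 0.34, adjusted p = 0.0684). Gpx1 was called lower without mouse 50 (-1.01) and with total counts (-1.31). Prdx1 was split by the mice with hepatocyte genes: 4 mice lay between 16.4 and 18.6 CPM and the other 2, numbers 49 and 51, higher, up to 189 CPM, while all vehicle mice without TBI were at 38.5 CPM or more. Over all 6 mice its log2 fold change was 0.35 ± 0.58, and without those mice it was -1.21 and called lower. Sod2 showed no difference that passed either threshold (0.09 ± 0.32).

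Against vehicle mice of Day 0 the same 4 genes were higher after TBI (Gpx4 1.78 ± 0.29, Prdx6 1.65 ± 0.24, Prdx5 1.41 ± 0.14 and Sod1 1.03 ± 0.31), against 15.1% of genes called higher and 11.8% lower, and Gpx1 was lower (-1.199 ± 0.39, adjusted p = 0.0283). The Sod1 call was lost without any 1 of vehicle mice 13, 14, 16 or 18 or TBI mice 49, 50 or 51 (lowest value 0.83), and the Gpx1 call without vehicle mouse 15 or TBI mouse 49 or 53 (-1.04 to -1.15). Without the mice with hepatocyte genes neither Sod1 (0.91) nor Gpx1 (-0.90) was called, and Prdx1 (-1.10) and Gpx3 (-1.41) were called lower. Both comparisons share the TBI mice. In the TBI versus Day 1 comparison 8 of 8 platelet genes (2.59) and 8 of 8 neutrophil genes (2.95) were higher and 8 of 8 B and 8 of 8 T cell genes lower. Of 14 erythroid genes 3 were higher (median 0.26), beside 19.6% of all genes called higher and 16.4% lower in that comparison. The part of these cell types in the enzyme genes was not tested.

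None of the 10 genes was called between irradiated mice given 200 mg/kg and irradiated vehicle mice. In this fit 0% of 24916 genes were called (688 at an unadjusted p under 0.05 in edgeR, and 0 called by DESeq2), whereas a fit of all 10 groups together called 184 genes higher and 11 lower, again none of the 10. The 10 genes lay between -0.43 ± 0.82 for Prdx1 and 0.34 ± 0.24 for Prdx6. Single mice with hepatocyte genes set the sign of some: Prdx1 was at 0.45 without vehicle mouse 51 and at -1.61 without treated mouse 57, and Sod2 at 0.68 and -0.61. The 95% interval for Gpx4 ran from -0.29 to 0.92, so a true difference anywhere in that range was compatible with these mice. Comparing the irradiated with the unirradiated mice given 200 mg/kg, Prdx2 was at 371, 878 and 1136 CPM against 1722, 2642 and 3751 CPM (log2 -1.85 ± 0.31, adjusted p = 8.70e-04) and Gpx1 at 720, 1350 and 1976 CPM against 2867, 4048 and 5869 CPM (-1.77 ± 0.32, adjusted p = 0.00149). Both were lower with no overlap, beside 5.73% of 23610 genes called lower and 14.9% higher. Cat was at the edge of the fold threshold (-0.996 ± 0.27, adjusted p = 0.0155) and was called without mouse 43 (-1.02) or 58 (-1.16). Leaving out irradiated mouse 57, which had hepatocyte genes, added Sod2 (-1.36) and Prdx1 (-1.15) to the genes called lower. Prdx6 (-0.03) and Gpx4 (-0.49) were not called (adjusted p = 0.932 and 0.148). With total counts Prdx2 (-0.99) and Gpx1 (-0.94) kept their direction and were not called, and Prdx5 was called higher (1.24). On that scale 9099 of the 23610 genes were called higher and 223 lower. In this comparison 10 of 14 erythroid genes were lower (-1.59), 7 of 8 neutrophil genes higher (2.73) and no platelet gene called (-0.10).

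The test of whether the 200 mg/kg effect on Day 1 differed with TBI gave 4 genes with a lower effect after TBI, against 10% of all genes: Gpx4 (-2.26 ± 0.35, adjusted p = 1.21e-04), Prdx6 (-1.90 ± 0.27), Prdx2 (-1.76 ± 0.48) and Sod1 (-1.30 ± 0.33). For Gpx4, Prdx6 and Sod1 the irradiated vehicle mice were themselves above the unirradiated ones, and for Prdx2 they were not. With total counts all 4 stayed below 0 (-1.09, -0.75, -0.49 and -0.16) and Gpx4 alone was called. Without the mice with hepatocyte genes Sod1 was not called (-0.99).

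Ratios between enzymes within a library do not depend on how libraries are scaled, so they were compared for 5 pairs in the 12 pairs of groups by 2-sided exact permutation tests (60 tests, smallest possible p 0.00216 for 6 against 6 mice, adjusted p 0.00999). The log2 ratio of Gpx1 to Gpx4 was 4.80 ± 0.38 (SD, n = 6) in vehicle mice on Day 1, 3.23 ± 0.23 after 200 mg/kg and 3.25 ± 0.63 after 100 mg/kg, differences of -1.57 and -1.55 (exact permutation test, adjusted p = 0.00999 for both). It was 2.02 ± 0.44 in irradiated vehicle mice (-2.78) and 1.97 ± 0.28 in irradiated mice given 200 mg/kg (-1.26 against the unirradiated ones), again at the smallest p. In all 4 comparisons the groups did not overlap. The ratio was also lower after 50 mg/kg on Day 0 (-0.75, adjusted p = 0.0162 by the permutation test), with overlap, and it was not called after 50 mg/kg on Day 1 (0.06) or after 100 (-0.09) or 200 mg/kg (0.09) on Day 0. Cat to Prdx6 went from 3.98 ± 0.55 in vehicle mice to 2.89 ± 0.28 after 200 mg/kg (-1.10), to 2.12 ± 0.33 after TBI (-1.87) and to 1.90 ± 0.24 after both (-0.99 against 200 mg/kg alone), each without overlap and at adjusted p = 0.00999 in the exact permutation test. It was also lower after 100 mg/kg on Day 1 (-1.09, adjusted p = 0.0217 by permutation) and after 50 mg/kg on Day 0 (-0.96, adjusted p = 0.0162), both with overlap, and without the mice with hepatocyte genes the former was not called (-1.01, adjusted p = 0.0549).

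Prdx2 to Prdx1, a red cell enzyme against one of the remaining enzymes, was 3.90 ± 0.34 in vehicle mice on Day 1 and 5.87 ± 0.73 after 200 mg/kg (1.97, exact permutation test, adjusted p = 0.00999), 5.41 ± 0.56 after 100 mg/kg (1.51, adjusted p = 0.0162) and 4.04 ± 2.55 after TBI (0.14, adjusted p = 0.980). The irradiated vehicle mice with hepatocyte genes, 49 and 51, were at 2.27 and -0.36, and the other 4 lay between 5.16 and 6.26, above the highest vehicle mouse (4.53). When those with hepatocyte genes were left out of every group, the ratio was higher after TBI by 1.65 (5.58 ± 0.48, n = 4, against 3.93 ± 0.37, n = 5, exact permutation test, adjusted p = 0.0227), beside 2.13 after 200 mg/kg and 1.70 after 100 mg/kg, all without overlap. In irradiated mice given 200 mg/kg, mouse 57, which had hepatocyte genes, was at 1.19 and the other 5 between 5.09 and 5.66. On Day 0 the ratio was higher after 200 mg/kg by 0.67 (adjusted p = 0.0410, not called without the mice with hepatocyte genes at 0.54) and differed by -1.31 after 50 mg/kg (adjusted p = 0.0216). Sod1 to Sod2, the cytosolic against the mitochondrial dismutase, was -0.07 ± 0.28 in vehicle mice and 1.11 ± 0.29 after TBI (1.18, adjusted p = 0.00999), with no overlap, and it was not called in any comparison of BIO 300 with vehicle. Prdx5 to Prdx1 rose by 1.04 after 200 mg/kg on Day 1 (exact permutation test, adjusted p = 0.00999), and the differences after 100 mg/kg (0.71, adjusted p = 0.0708) and after TBI (1.59, adjusted p = 0.1203) were not called. After TBI mice 49 and 51 were at -0.59 and -1.16 and the other 4 at 1.62 to 1.95, while the vehicle mice reached -0.54. With those mice left out of every group, this ratio was higher after 200 mg/kg (1.13), after 100 mg/kg (0.84) and after TBI (2.42), all at adjusted p = 0.0227 in the exact permutation test. The 5 ratios were called in 19 of 60 tests. With them left out, a setting added after the data were seen, 25 were called, 17 of the 19 among them.

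**Figure D4:**
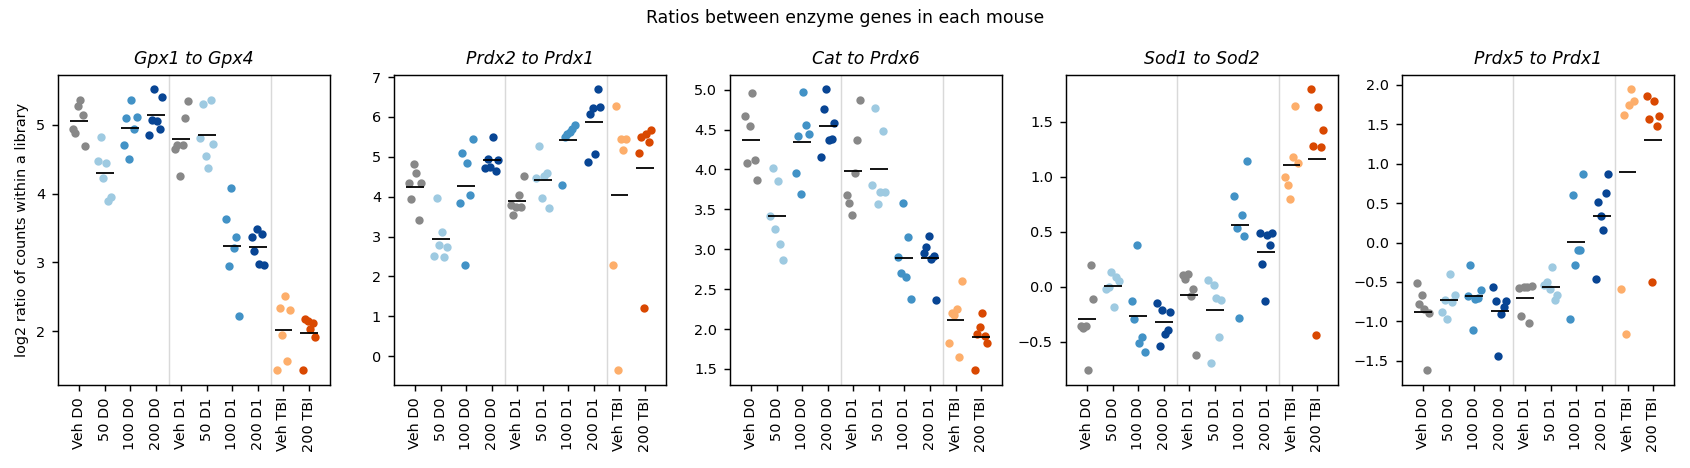
log2 ratio of the counts of 5 pairs of enzyme genes within each library, by group, with a point for each mouse and bars at group means. Gpx1 to Gpx4 and Cat to Prdx6 step down after 100 and 200 mg/kg on Day 1 and further after TBI (means 4.80, 3.23 and 2.02 for Gpx1 to Gpx4 in vehicle, 200 mg/kg and irradiated vehicle mice), Sod1 to Sod2 steps up after TBI, and Prdx2 to Prdx1 is high after 100 and 200 mg/kg on Day 1 and also in 4 of 6 and 5 of 6 mice of the TBI groups, where the low mice (49, 51 and 57) are those with hepatocyte genes.

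Set against the mean of the 14 erythroid genes in the same library, each enzyme's log2 ratio was compared in the same way (120 tests, 28 called). After 200 mg/kg on Day 1, Gpx1 (-0.67, exact permutation test, adjusted p = 0.0162), Cat (-0.57), Sod2 (-0.80) and Prdx1 (-1.78) fell relative to the erythroid genes and Gpx4 (0.90, adjusted p = 0.0312) rose. Gpx4 was not called without the mice with hepatocyte genes (0.76, adjusted p = 0.0680 by permutation). The ratios of Prdx2, Sod1, Gpx3, Prdx5 and Prdx6 were not called. After TBI, Gpx4 (1.99) and Prdx6 (2.11) rose relative to them without overlap and Gpx1 fell (-0.79, adjusted p = 0.0385). After 50 mg/kg on Day 0, where the erythroid genes were low, Sod1 (1.18), Sod2 (0.88), Gpx4 (0.95), Prdx1 (1.37), Prdx5 (1.52) and Prdx6 (1.08) rose relative to them, and Prdx2, Gpx1 and Cat were not called. Sod2 was not called there without the mice with hepatocyte genes (0.90). With the 4 globin genes as the reference, 16 of 120 tests were called. Only 12 of the 28 were among them and 4 were new, so most of the 28 calls depended on the reference.

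Mice of the same group differed from one another, and the enzymes shared part of that variation with blood cell markers. After subtracting group means over 60 mice, Prdx2 followed the erythroid list most closely (Pearson r = 0.95, Spearman rho = 0.93, both permutation p = 1e-05, adjusted p 5e-05 and 5.56e-05 over 50 relations), followed by Gpx1 (r = 0.91, rho = 0.93) and Cat (r = 0.77, rho = 0.87), all 3 at the smallest p that 100000 permutations can give. Without the 2 mice farthest from the median of the list r was 0.94, 0.91 and 0.89. With total counts r was 0.88, 0.76 and 0.37, and the points share each library's scaling factor. Of the 5 red cell enzymes, Prdx2, Gpx1 and Cat thus varied with erythroid RNA among mice treated alike, Cat less closely on total counts. The other 2 did not share this: Sod1 showed no relation (r = -0.03, rho = 0.21, permutation p = 0.863) and Prdx6 a weak one (r = 0.48, rho = 0.48, permutation, adjusted p = 0.00281). On total counts r was below 0 for both (-0.65 and -0.44).

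Gpx4 followed the 8 platelet genes instead (r = 0.96, rho = 0.94, permutation p = 1e-05, r = 0.95 without the 2 farthest mice and 0.88 with total counts). Its r with the erythroid list was 0.73 (rho = 0.64) and 0.18 with total counts. Prdx2 (r = 0.82, rho = 0.73), Gpx1 (r = 0.73, rho = 0.69) and Prdx6 (r = 0.68, rho = 0.73) were also correlated with the platelet list at the smallest permutation p, with r of 0.56, 0.35 and 0.20 on total counts. For Prdx1 r was -0.55 and rho -0.31 (permutation, adjusted p = 0.00719 and 0.0428), and r was -0.25 without the 2 farthest mice, so the size of that relation rests on them. For Prdx5 the coefficients differed (r = -0.01, adjusted permutation p = 0.974, and rho = 0.34, adjusted p = 0.0309). The 50 relations also cover hepatocyte, neutrophil and B cell lists, for which the r largest in size follow. The hepatocyte list gave 0.85 for Prdx1, 0.64 for Sod1 and 0.55 for Sod2 (0.83, 0.81 and 0.72 on total counts). The neutrophil list gave -0.67 for Prdx1 and -0.62 for Sod2 (-0.19 and -0.44), and the B cell list -0.57 for Prdx6 (0.02).

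**Figure D5:**
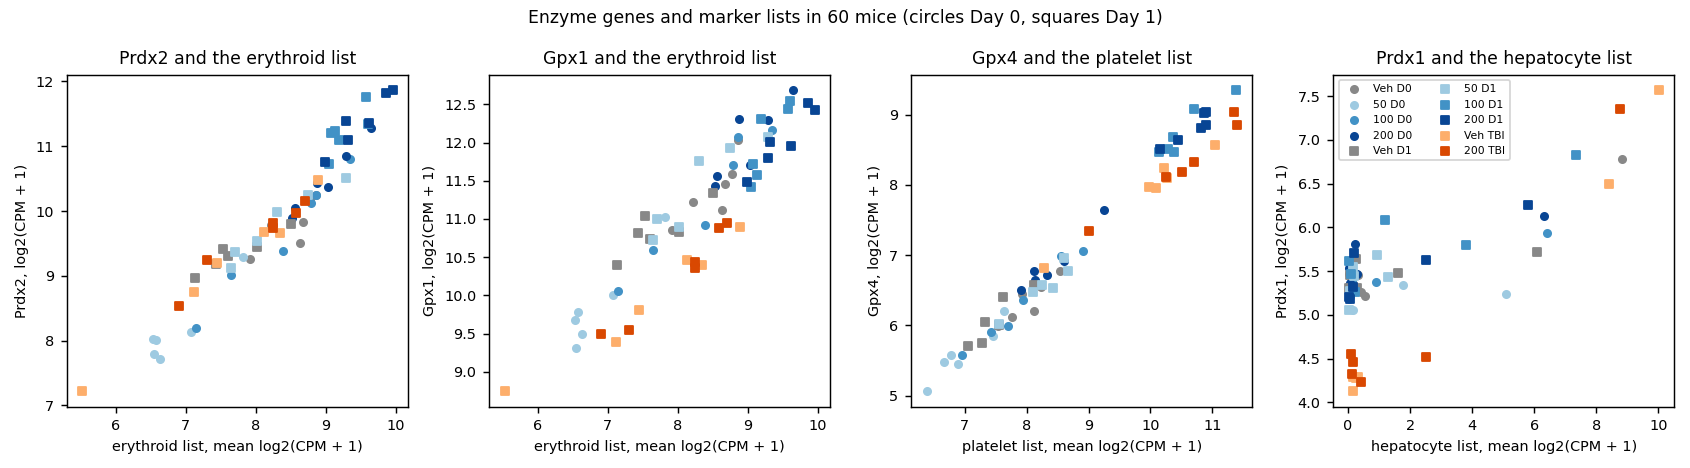
Level of an enzyme gene against the mean level of a marker list, both as log2(CPM + 1) on the TMM scale, in 60 mice coloured by group (circles Day 0, squares Day 1 and TBI). Prdx2 and Gpx1 rise with the erythroid list, with Gpx1 of the TBI groups below the rest; Gpx4 rises with the platelet list; and Prdx1 is highest in the mice at the right with hepatocyte genes and lowest in irradiated mice without them.

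The genes most like each enzyme over all 60 mice, among 6738 genes with a mean of at least 10 CPM, were taken by Pearson r as a description. Gpx4 was closest to Cavin2 (r = 0.99), a caveolar protein gene abundant in platelets, Gatad1 and Gpx4-ps2, and Prdx6 to Lamp1, F11r and Gramd1c (0.99 each). Prdx2 was closest to its processed copy Tdpx-ps1 (0.995), which shares transcript sequence with it, then Isg20 and Suds3, and Gpx1 to Dhrs11, Eif5 and Glrx5 (0.978, 0.977 and 0.975). Cat was closest to Optn, Itsn1 and Psme4 (0.95 each), Sod1 to Ptms, Rida and Tpi1 (0.97 each), and Prdx5 to Vdac1, Dynll2 and Slc35f5 (0.96, 0.96 and 0.95). Sod2 was closest to Cox7b and Ndufb11 (0.94 and 0.93), both parts of the respiratory chain, and to Mgst3. Prdx1 was closest to Pebp1, Chchd10 and Hibadh (0.95, 0.92 and 0.92). Gpx3 was unlike the others in its company: Fabp4 (0.88), Ucp1 (0.86) and Lpl (0.84) are genes of fat cells.

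The partners of these enzymes were read from lists of other genes on the TMM scale and were not refitted with total counts, and their counts stand beside 17.3% of all genes called higher and 30.5% lower at 200 mg/kg and 18.2% and 30.6% at 100 mg/kg. Of 20 genes of the thioredoxin and glutathione systems, 10 were called higher and 1 lower after 200 mg/kg on Day 1 (median log2 fold change 0.94) and the same numbers after 100 mg/kg (1.06). Srxn1, the sulfiredoxin that restores overoxidized peroxiredoxins, was at 29.7 ± 7.86 CPM in vehicle mice and 295 ± 42.3 CPM after 200 mg/kg (means ± SD, n = 6, TMM over the groups compared), a log2 fold change of 3.31 ± 0.18 (adjusted p = 1.76e-08, edgeR). Gsr, glutathione reductase, which returns the glutathione that Gpx1 uses, went from 29.5 ± 6.29 to 157 ± 29.5 CPM (2.41 ± 0.17), and Taldo1 of the pentose phosphate pathway from 291 ± 51.4 to 1416 ± 264 CPM (2.28 ± 0.17). Of 7 genes that supply NADPH, 2 were higher after 200 mg/kg, and 4 after the lower dose. Of the 6 tested of 7 further family members, 1 and 2 were higher, of 6 NADPH oxidase genes, the source of superoxide in phagocytes, 1 was lower at each dose, and of 6 genes for making selenoproteins 1 was lower at 200 mg/kg while at 100 mg/kg 1 was higher and 1 lower.

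After 50 mg/kg on Day 0, 5 of the 20 thiol genes were lower and none higher (4.38% of all genes were lower), led by the glutaredoxins Glrx5 (-1.69 ± 0.29) and Glrx (-1.56 ± 0.24) and by Gclm (-1.36 ± 0.21), a subunit of the enzyme that makes glutathione. After TBI in vehicle mice 9 of the 20 were higher and 2 lower than in unirradiated mice of Day 1, beside 19.6% and 16.4% of all genes. Srxn1 (2.63 ± 0.31) led, then Sesn2 (2.44 ± 0.22), a sestrin induced by p53, and Msrb1 (2.39 ± 0.23), a selenoprotein that repairs oxidized methionine. With TBI after 200 mg/kg against 200 mg/kg alone, 3 were higher and 4 lower (14.9% and 5.73% of all genes), Glrx5 by the most (-2.72 ± 0.30). Of the 7 NADPH genes 4 were higher after TBI (Day 1 comparison), of the 6 oxidase genes 1.

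The 10 mice with hepatocyte genes had higher medians of several enzymes. Prdx1 had a median of 82.2 CPM (36.6 to 189) in them and of 38.8 CPM (16.4 to 66.7) in the other 50, Sod1 of 89.97 against 39.1 CPM and Sod2 of 62.5 against 40.2 CPM. Prdx2 (563 against 928 CPM) and Gpx1 (1442 against 2311 CPM) had lower medians in the 10 mice. These are descriptions of unequal sets of mice from different groups, with no test. Mice 49 and 51 of the irradiated vehicle group also had 6 of 8 adipocyte genes above 10 CPM.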

How the data were processed

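RNA was sequenced from the whole blood of 60 mice, 1 library per mouse and 6 mice per group. Per the labels and the study's methods, the authors used Trimmomatic 0.36 for trimming, STAR 2.5.2b for alignment (GRCm38) and Subread 1.5.2 for counting unique hits per gene. The annotation release and strand setting are not given in the sources used here. The sources differ on the library: the methods describe stranded total RNA depleted of ribosomal and globin RNA, and the labels polyA selection, which bears on how much globin and other red cell RNA is read. The deposited count tables (10 of them) hold raw counts per gene and mouse. The deposited result tables hold DESeq2-normalized signal, a constant multiple of the counts in each mouse, used only to check the columns and for gene symbols. Their log2 fold changes and p-values are the authors' own comparisons and were not used.

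Each of 12 pairs of groups and 4 differences of effects was fitted with edgeR 4.0.16 (quasi-likelihood, TMM, R 4.3.3) after dropping genes under 10 counts in all in the mice compared. A gene was called at a Benjamini-Hochberg adjusted p under 0.05 over all genes tested and a log2 fold change over 1 in size. The SE is the log2 fold change divided by the square root of F. Ratios of counts used a pseudocount of 0.5 and exact permutation tests (scipy 1.17.1, 924 permutations). Every count table gave the same counts for mice it shared with another, and no library repeated another. Annotation was GENCODE M21 on GRCm38. The mice are separate animals.

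The 10 genes and all lists were chosen with earlier results of these data known. All 10 genes were named in every comparison. Of other listed genes, at most the 3 called genes with the largest change and a mean of at least 10 CPM in a group were named, and for each enzyme the 3 genes most like it. Counts were simulated for 200 mg/kg Day 1 versus Vehicle Day 1, with 200 of 22989 genes changed. There 71% of log2 changes of 1.5 and 93% of 2.5 were called, beside 13 false calls. The shares were 80% and 93% for 50 mg/kg Day 0 versus Vehicle Day 0. They were lower for Vehicle TBI Day 1 versus Vehicle Day 1 (48% and 83%). For the difference of the 200 mg/kg effect with TBI they were 24% and 57%, so genes not called there may still differ. False calls in these later comparisons numbered 6, 4 and 2. Each simulation changed only 200 genes, whereas 11241 of 23513 were called in the data for 200 mg/kg Day 1 versus Vehicle Day 1. The shares therefore cannot show how calls hold under so broad a change and its scaling, and they are not specific to the 10 enzymes. Alternatives covered the scaling, the filter, DESeq2 1.42.0, all groups in 1 fit, animal number, single mice and mice with hepatocyte genes.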

Additional observations from a re-analysis of the deposited data

Results flagged for a closer look

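In 15 of the 100 sets of 6 mice (10 genes in 10 groups), the highest mouse stood further from the nearest other than chance gives in about 1 in 20 groups. Of these, 8 were mice with hepatocyte genes. Mouse 17 (Vehicle Day 0) was at 79.5 CPM for Sod1 and 108.7 CPM for Prdx1. Mouse 57 (irradiated after BIO 300) was at 159.4 CPM for Sod2, 162.1 CPM for Prdx1 and 114.5 CPM for Prdx5. Prdx1 was at 59.98 CPM in mouse 9 (BIO 300 100 mg/kg Day 0), Prdx5 at 84.58 CPM in mouse 51 (Vehicle TBI Day 1) and Gpx3 at 12.03 CPM in mouse 43 (BIO 300 200 mg/kg Day 1). Among mice without hepatocyte genes, mouse 2 (BIO 300 50 mg/kg Day 0) was at 2076 CPM for Gpx1 and 628.4 CPM for Prdx2, mouse 22 (BIO 300 200 mg/kg Day 0) at 198.0 CPM for Gpx4 and 95.21 CPM for Prdx6, mouse 30 (Vehicle Day 1) at 51.66 CPM for Sod2 and 17.25 CPM for Gpx3, and mouse 36 (BIO 300 50 mg/kg Day 1) at 4.294 CPM for Gpx3.

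On the TMM scale, 24 tests of the difference between days or with TBI were called (edgeR, log2), among 10 genes in each of 4 differences. Of all genes, 13.1% (200 mg/kg), 15.7% (100 mg/kg) and 6.73% (50 mg/kg) were called higher between days, and 10% lower with TBI. Fewer of the 10 genes were called with total counts, where some values reversed, as given below. For 200 mg/kg, Day 1 minus Day 0, the values were 2.38 for Prdx6, 2.24 for Gpx4, 1.42 for Prdx2, 1.37 for Sod1, 1.16 for Prdx5 and 1.02 for Cat. For 100 mg/kg they were 2.71 for Gpx4, 2.48 for Prdx6, 1.91 for Prdx2, 1.86 for Sod1, 1.26 for Cat, 1.2 for Gpx1, 1.15 for Prdx5 and 1.12 for Sod2. For 50 mg/kg they were 2.11 for Cat, 2.09 for Prdx2, 2.06 for Gpx1, 1.21 for Gpx4, 1.15 for Prdx6 and 1.11 for Sod2. For 200 mg/kg with TBI minus without, they were -2.26 for Gpx4, -1.90 for Prdx6, -1.76 for Prdx2 and -1.30 for Sod1.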

How the results depend on the processing

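Scaling mattered most. With total counts, 15 of the 55 called values were still called, 25 kept only their direction and 15 reversed. The members called were 2 for 200 mg/kg Day 1 (1 lower), 1 for 100 mg/kg Day 1, 0 for 50 mg/kg Day 0 and 1 for BIO 300 TBI versus BIO 300 Day 1, and in the differences of effects 2 (200 mg/kg), 2 (100 mg/kg), 3 (50 mg/kg) and 1 (TBI). Reversed log2 fold changes were, at 200 mg/kg Day 1, Sod1 -0.01, Sod2 -0.41, Cat -0.21, Gpx1 -0.28 and Prdx5 -0.36; at 100 mg/kg Day 1, Sod2 -0.35, Cat -0.22, Gpx1 -0.16 and Prdx5 -0.26; in the difference between days at 200 mg/kg, Cat -0.23 and Prdx5 -0.15; and at 100 mg/kg, Sod2 -0.29, Cat -0.08, Gpx1 -0.12 and Prdx5 -0.37. Over all genes the calls (higher and lower) went from 4073 and 7168 to 712 and 15405 at 200 mg/kg Day 1, from 4314 and 7249 to 980 and 14732 at 100 mg/kg Day 1, from 31 and 1072 to 2563 and 307 at 50 mg/kg Day 0, from 4920 and 4122 to 3115 and 5667 for Vehicle TBI versus Vehicle Day 1, and from 3521 and 1352 to 9099 and 223 for BIO 300 TBI versus BIO 300 Day 1. Total counts without the 50 largest genes gave 2 members at 200 and at 100 mg/kg Day 1 and, in the differences, 2, 2, 3 and 2, with Sod2 at -0.03 (200 mg/kg Day 1) and Prdx5 at -0.01 (difference at 100 mg/kg). The cause was not tested.

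Without the mice with hepatocyte genes, 48 of the 55 were still called and none reversed, and BIO 300 TBI versus BIO 300 Day 1 had 4 members called. Leaving out 1 mouse at a time gave 3 to 5 members for Vehicle TBI versus Vehicle Day 0 and 2 to 4 for BIO 300 TBI versus BIO 300 Day 1, and no called value reversed. With 4 globin genes as the reference, 16 ratios were called in place of 28, 12 of the 28 among them and 4 gained. Without the mice with hepatocyte genes, a setting added for the ratios after the data were seen, 30 ratios to the erythroid list were called, 24 of the 28 among them, and 25 partner ratios, 17 of the 19 among them, with 8 gained. Of the 55, DESeq2 and its size factors called all, filterByExpr, no filter and odd or even animal number 54 each, and all 10 groups in 1 fit 50. No paired analysis was possible because the labels give each mouse a number of its own, so that groups share none.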
